A study of Solanum lycopersicum with 24 samples.

Results

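The thiamine synthesis pair of tomato fruit is the gene Solyc07g064160.3, described in the deposited tables as a chloroplast thiamine thiazole synthase, and the gene Solyc06g006080.3, described as a phosphomethylpyrimidine synthase. They are 2 of the 34688 genes counted, were found by gene identifier, and had been selected on their read levels in epicarp at 2 d and 5 d of light, between which they rose. Levels in those epicarp libraries are therefore a description and carry no test. What was tested is the same pair in the mesocarp libraries and in the epicarp libraries that the choice did not use.

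All fruit were of 1 purple tomato genotype, MT-Aft/atv/hp2 (Solanum lycopersicum). It joins Aft and atv, alleles that raise anthocyanin pigment, with hp2, a high-pigment allele with exaggerated light responses, and all groups carry all 3 alleles, so nothing here compares genotypes. RNA was sequenced from epicarp (the skin) and mesocarp (the flesh beneath it) in 4 conditions each, with 3 libraries per group and 24 in all. Control fruit grew in light for 30 d. The other fruit grew for 30 d inside aluminium foil and were taken on uncovering (0 d) or after 2 d or 5 d of light. Darkness cannot be told apart from the foil, light from its removal, and time after uncovering from fruit age. The labels give no hour of collection, and nothing says that replicates came from separate plants, so p-values measure the spread between these libraries.

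Thiamine (vitamin B1) is built in the plastid from a thiazole ring and a pyrimidine ring that are made separately and then joined. Thiazole synthase (THI1 or THI4 in other plants) makes the first ring and gives up a sulfur atom of its own protein in doing so, which makes each molecule of the enzyme work only once. Phosphomethylpyrimidine synthase (THIC), an iron-sulfur enzyme, makes the other ring. In Arabidopsis the THIC transcript carries a thiamine pyrophosphate riboswitch and follows the circadian clock. Thiamine pyrophosphate, the active form, is the cofactor of enzymes such as transketolase and pyruvate dehydrogenase.

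On build SL4.0, Solyc07g064160.3 lies on the plus strand of chromosome 7 from 66249261 to 66251464, an interval of 2204 bases. Solyc06g006080.3 lies on the plus strand of chromosome 6 from 1121155 to 1126401, an interval of 5247 bases. No other counted gene overlaps either interval. The nearest genes of the thiazole synthase gene are Solyc07g064150.4, described as a SUI1-like translation factor, at 4313 bases and Solyc07g064170.3, pectin methylesterase 1, at 7476 bases. Those of the pyrimidine synthase gene are a leucine-rich repeat kinase gene, Solyc06g006028.2, at 13469 bases and a josephin-like gene, Solyc06g006090.1, at 5249 bases. Reads were counted over whole intervals, introns included, so the values do not separate transcript variants.

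Libraries held 18402751 to 23197867 assigned reads. The 0 d libraries stood apart: log2 levels of replicates correlated at 0.871 to 0.937 there and at 0.952 to 0.985 in the other groups. The tissue labels were checked against 5 cuticle genes (CD1, GPAT6, CER3, CER6 and CD2), all of which had reads in every group. Their summed level was 396.5 to 9366 CPM (reads of the gene per 1e6 assigned reads) in epicarp libraries. It was 18.91 to 63.09 CPM in mesocarp libraries other than replicate 1 at 0 d, which stood at 679.7 CPM. In epicarp, the 0 d replicate 1 library was likewise high, at 9366 CPM against 640.7 and 704.6 CPM in the other 0 d libraries. Results of the pair that rest on the 0 d libraries, and calls of single list genes, are given with and without them below or in the closing section. In bulk tissue, fewer cells of a type and less RNA per cell cannot be told apart.

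The thiazole synthase gene was among the most abundant transcripts of the fruit, while the place of the pyrimidine synthase gene varied widely. TPM here divides by whole intervals, introns included, so places among genes also depend on intron length. On the length-scaled TPM scale, the thiazole synthase gene ranked between place 4 and place 159 of all genes across the 24 libraries and took 0.0573% to 0.742% of the assigned reads. The pyrimidine synthase gene ranked between place 155 and place 5096 and took 0.00511% to 0.117%. The smallest count of either gene in any library was 1089 reads, so counting error was at most 3.03% of a value, whereas the SD between replicates reached 51.4% of the mean for the thiazole synthase gene (mesocarp 0 d) and 53.7% for the pyrimidine synthase gene (epicarp 0 d). The spread between libraries and not depth thus limited the comparisons.

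**Figure D1:**
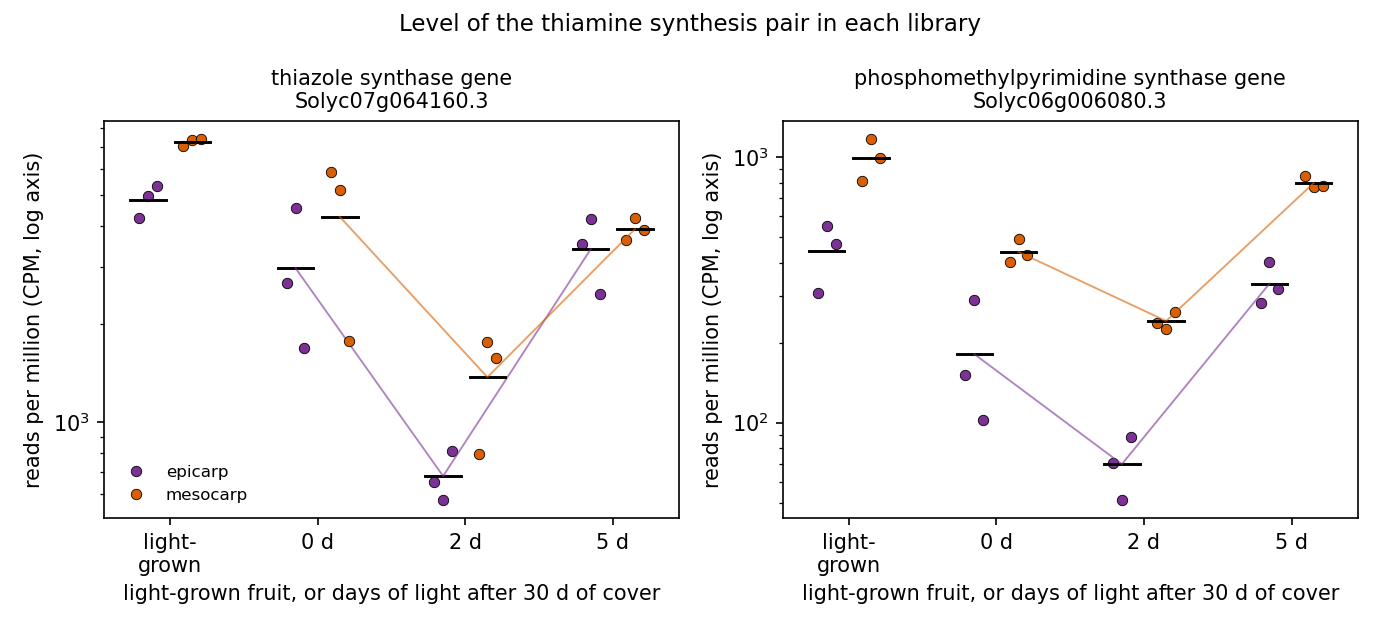
Level of each gene in every library, in CPM on a log axis, against condition. Points are libraries, bars are means of 3 and lines join the means at 0 d, 2 d and 5 d. In both tissues the mean of each gene was lower at 2 d than at 0 d and 5 d, and mesocarp means stood above epicarp means throughout.

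In epicarp the thiazole synthase gene stood at 4230, 4941 and 5301 CPM in light-grown fruit (replicates 1, 2 and 3). At 0 d the values were 2671, 4547 and 1690 CPM. At 2 d they were 652, 573.3 and 814.8 CPM, below every other epicarp library. At 5 d they were 3526, 4198 and 2464 CPM, above all 2 d libraries, within the range of the 0 d libraries and below all light-grown ones.

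In mesocarp the same gene stood at 7053, 7339 and 7423 CPM in light-grown fruit, above every other library of the study. At 0 d it gave 5886, 5157 and 1772 CPM, with replicate 3 far below the others. At 2 d it gave 793.7, 1754 and 1565 CPM, and these lay below all 0 d libraries, though the gap between the highest 2 d library and 0 d replicate 3 was small. At 5 d it gave 3628, 4226 and 3891 CPM, more than any 2 d library.

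In light-grown epicarp the pyrimidine synthase gene stood at 307.5, 548 and 471.2 CPM. At 0 d epicarp gave 150.9, 289.9 and 102.4 CPM, all below the light-grown libraries. At 2 d it gave 70.37, 51.09 and 88 CPM, below every other library of the study. At 5 d it gave 281.1, 401.4 and 317.3 CPM, which overlapped both the 0 d and the light-grown libraries.

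In light-grown mesocarp the pyrimidine synthase gene stood at 813.1, 1168 and 986.4 CPM. At 0 d it gave 401.4, 488.8 and 425.6 CPM, a narrow group well below the light-grown one. At 2 d it gave 236.9, 225.3 and 261.4 CPM and at 5 d 847, 770 and 773.3 CPM. The 5 d libraries lay above every 0 d and 2 d library and overlapped the light-grown ones.

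Ordered by mean level, the thiazole synthase gene ran from light-grown mesocarp (7272 CPM) through light-grown epicarp (4824), mesocarp 0 d (4272), mesocarp 5 d (3915), epicarp 5 d (3396), epicarp 0 d (2969) and mesocarp 2 d (1371) to epicarp 2 d (680 CPM), a range of 10.7-fold. Only the step from light-grown mesocarp to light-grown epicarp separated neighbours whose libraries did not overlap. By the same order the pyrimidine synthase gene ran from light-grown mesocarp (989.2 CPM) through mesocarp 5 d (796.7), light-grown epicarp (442.2), mesocarp 0 d (438.6), epicarp 5 d (333.3), mesocarp 2 d (241.2) and epicarp 0 d (181.1) to epicarp 2 d (69.82 CPM), a range of 14.2-fold. There, neighbours overlapped between light-grown and 5 d mesocarp, between light-grown epicarp and mesocarp 0 d, and between mesocarp 2 d and epicarp 0 d. The step from mesocarp 0 d to epicarp 5 d was 401.45 against 401.374 CPM at its nearest libraries, so those groups barely separated.

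The rise for which the pair was chosen was of nearly equal size in both genes. Between 2 d and 5 d in epicarp the thiazole synthase gene was 5.06-fold higher (log2 2.34) and the pyrimidine synthase gene 4.82-fold higher (log2 2.27). It followed a drop between 0 d and 2 d that was 4.24-fold for the thiazole synthase gene and 2.52-fold for the pyrimidine synthase gene. Against light-grown epicarp, 5 d levels were lower by log2 0.38 and 0.29, in that order. These values involve the libraries that chose the members and were not tested.

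In mesocarp, whose libraries did not enter the choice, both genes rose between 2 d and 5 d. These libraries were not fully independent of those that did: same-numbered epicarp and mesocarp libraries deviated together from their group means across genes, with correlations of 0.124 to 0.171 at 2 d and 0.194 to 0.305 at 5 d. The thiazole synthase gene rose 2.81-fold, log2 1.49 ± 0.38 (SE), with an adjusted p of 0.0423 in edgeR's quasi-likelihood test with Benjamini-Hochberg adjustment over the 19620 genes tested. The pyrimidine synthase gene rose 3.24-fold, log2 1.70 ± 0.30, with an adjusted p of 0.00479 in the same test. Every 5 d library exceeded every 2 d library for both, but the share of all genes whose 2 d and 5 d libraries did not overlap was not counted. Of all genes tested, 1.07% rose and 1.44% fell past the threshold of 0.05 in this comparison, 2.51% in all. The call for the thiazole synthase gene was lost without any 1 of the 6 libraries (adjusted p 0.0572 to 0.209, log2 1.25 to 1.73), whereas that for the pyrimidine synthase gene held in each of its 14 alternatives (adjusted p 2.44e-06 to 0.0253). The spread of the fit was estimated from all 24 libraries, including the epicarp libraries that chose the pair. Without the epicarp 2 d and 5 d libraries in the fit, the call for the thiazole synthase gene was also lost. The rise in epicarp was not tested against that in mesocarp, since it chose the pair.

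The thiazole synthase gene fell before it rose. Between 0 d and 2 d in mesocarp it fell 2.76-fold (log2 -1.46 ± 0.38, adjusted p 0.00865, edgeR), and fell by log2 1.83 without 0 d replicate 3 and by 1.18 without 0 d replicate 1. With the spread taken from the compared libraries alone it did not pass (adjusted p 0.103). In the pyrimidine synthase gene the difference was log2 -0.70 ± 0.29 with an adjusted p of 0.0873, which did not pass, although no 2 d library reached the 0 d range, and ranged over -0.80 to -0.63 with 1 library left out. In this comparison 10.8% of genes fell and 13.3% rose past the threshold, 24.1% in all. The adjusted p of the pyrimidine synthase gene was below 0.05 in DESeq2 (0.0493) and in limma on log2(TPM + 1) (0.0256, log2 -0.90).

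**Figure D2:**
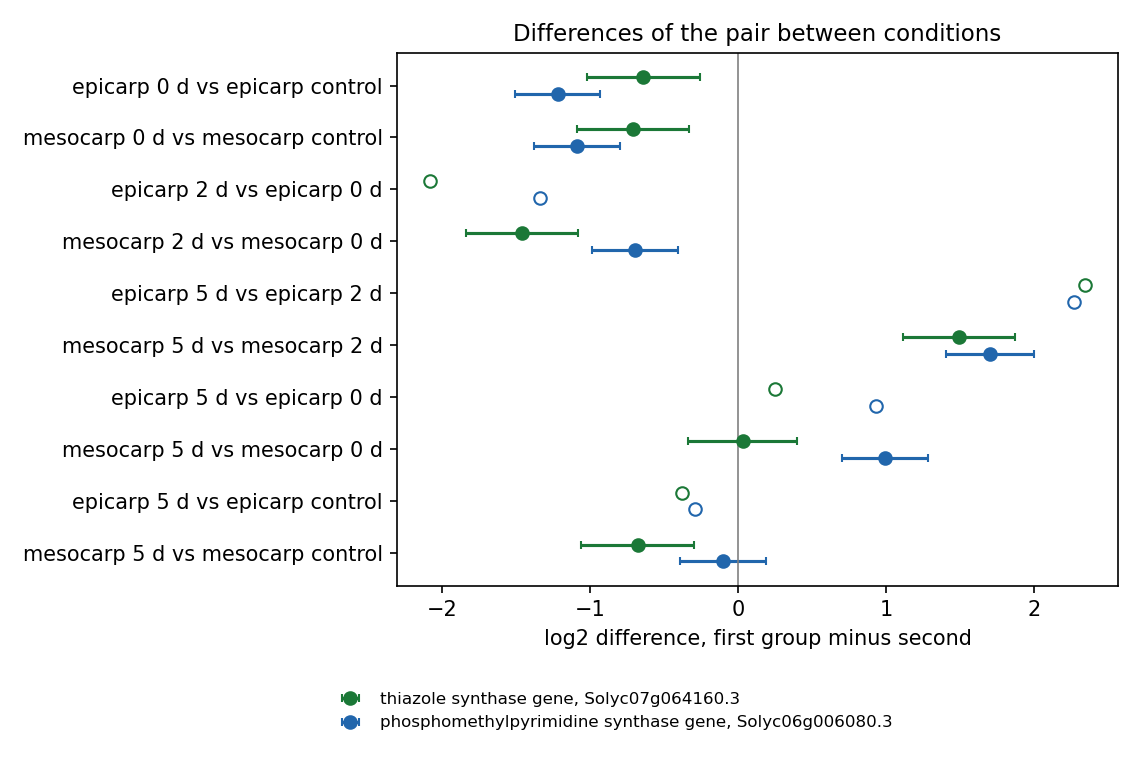
Log2 difference of each gene between conditions, first group minus second. Filled points carry the SE of the edgeR fit; open points rest on the epicarp libraries that chose the pair and have no error or test. The 5 d against 2 d difference in mesocarp was 1.49 for the thiazole synthase gene and 1.70 for the pyrimidine synthase gene.

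After 5 d of light the mesocarp level of the pyrimidine synthase gene was 1.99-fold above that at 0 d (log2 0.99 ± 0.29, adjusted p 0.0219, edgeR), in a comparison where 11.1% of genes were higher and 8.09% lower past the threshold, 19.2% in all. That call was lost without 0 d replicate 1 or 3 or 5 d replicate 1 or 2 (adjusted p 0.052 to 0.0784). For the thiazole synthase gene the difference was log2 0.03 ± 0.37 (adjusted p 0.974), and it was 0.00 with DESeq2's size factors, -0.34 without 0 d replicate 3 and -0.06 without 5 d replicate 2.

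Against light-grown mesocarp, neither gene passed at 5 d, where 12.6% of genes were higher and 7.71% lower past the threshold, 20.3% in all. For the pyrimidine synthase gene the fit gave log2 -0.10 ± 0.29 (adjusted p 0.846, edgeR) with overlapping libraries. The thiazole synthase gene gave log2 -0.68 ± 0.38 (adjusted p 0.217), and every 5 d library lay below every light-grown one, 3628 to 4226 CPM against 7053 to 7423 CPM. With the spread taken from these 6 libraries alone that difference passed (adjusted p 0.0204).

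Fruit grown under foil had less pyrimidine synthase transcript than light-grown fruit in both tissues. In epicarp the gene was 2.33-fold lower at 0 d (log2 -1.22 ± 0.29, adjusted p 0.00725, edgeR), in a comparison where 9.08% of genes were lower and 10.1% higher past the threshold, 19.1% in all. In mesocarp it was 2.14-fold lower (log2 -1.09 ± 0.29, adjusted p 0.0395), where 1.90% of genes were lower and 2.40% higher, 4.30% in all. The mesocarp call was lost without any 1 of its 6 libraries (adjusted p 0.0511 to 0.147, log2 -1.22 to -0.93). The epicarp call held without any 1 library, with log2 -1.82 without 0 d replicate 2 and -0.95 without 0 d replicate 3. With the spread taken from the compared libraries alone neither passed (adjusted p 0.151 in epicarp and 0.205 in mesocarp).

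The thiazole synthase gene was lower on average in the same comparisons but did not pass. It gave log2 -0.64 ± 0.38 in epicarp (adjusted p 0.252, edgeR) and -0.71 ± 0.38 in mesocarp (adjusted p 0.286). In mesocarp every 0 d library lay below the light-grown ones, with most of the difference in replicate 3: without it the value was -0.33. In epicarp the libraries overlapped, and the value was -1.17 without 0 d replicate 2 and -0.37 without 0 d replicate 3. The effect of the cover in epicarp minus that in mesocarp was 0.07 ± 0.53 for the thiazole synthase gene (adjusted p 0.985) and -0.13 ± 0.41 for the pyrimidine synthase gene (adjusted p 0.928), on the log2 scale, with 0.744% of genes past the threshold upward and 1.82% downward, 2.56% in all.

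Mesocarp held more pyrimidine synthase transcript than epicarp. In light-grown fruit epicarp was 2.14-fold lower (log2 -1.10 ± 0.29, adjusted p 0.00909, edgeR), in a comparison where 13.6% of genes were lower and 13.2% higher in epicarp, 26.8% in all. That call was lost without epicarp control replicate 1 (log2 -0.88, adjusted p 0.0626) or mesocarp control replicate 2 (log2 -0.92, adjusted p 0.0508). At 0 d epicarp was 2.34-fold lower (log2 -1.23 ± 0.29, adjusted p 0.00726), where 9.57% of genes were lower and 8.78% higher, 18.3% in all, and that call held without any 1 library (adjusted p 0.000176 to 0.028) but not with the spread taken from the compared libraries alone (0.241). At 2 d and 5 d, with no test, the differences were log2 -1.86 and -1.28.

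For the thiazole synthase gene neither tested difference between the tissues passed. In light-grown fruit it gave log2 -0.53 ± 0.38 (adjusted p 0.327, edgeR), with no overlap between 4230 to 5301 CPM in epicarp and 7053 to 7423 CPM in mesocarp. With the spread taken from those libraries alone it passed (log2 -0.56, adjusted p 0.0103). At 0 d it gave log2 -0.45 ± 0.38 (adjusted p 0.429), with overlapping libraries and values of -0.99 to -0.18 when 1 of the 0 d libraries was left out. At 2 d and 5 d, with no test, the differences were -1.08 and -0.23.

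Markers of other tissue moved with some of these contrasts. Genes described as sieve element occlusion or phloem proteins, 27 in all, summed to 477.6 to 590.4 CPM in light-grown mesocarp, 151.7 to 697.1 CPM at 0 d, 154.5 to 181.4 CPM at 2 d and 148 to 205.8 CPM at 5 d, and to 46.58 to 130.4 CPM in epicarp. Between 8 and 18 of them had no read in a given group. In mesocarp between 2 d and 5 d the summed ranges overlapped. Of 16 genes tested 1 was higher and 0 lower, where 1.07% of all genes were higher and 1.44% lower. The median log2 difference was 0.67 against 0.02 over all genes. Seed storage and oil body genes, 47 in all with 27 to 37 at 0 reads in a group, summed to 80.15 to 146.5 CPM in light-grown mesocarp and to at most 47.97 CPM in any other library. The 5 cuticle genes summed to 396.5 to 485.6 CPM at 2 d and 694.8 to 2761 CPM at 5 d in epicarp (median log2 difference 1.43), so they were higher in the same group as the pair. Within that group the cuticle sums were 736.7, 694.8 and 2761 CPM in replicates 1, 2 and 3. The thiazole synthase gene stood at 3526, 4198 and 2464 CPM and the pyrimidine synthase gene at 281.1, 401.4 and 317.3 CPM. In mesocarp the cuticle genes summed to 27.01 to 31.12 CPM at 2 d and 18.91 to 33.02 CPM at 5 d. There 0 of 5 were called (median 1.04), where 2.51% of all genes were. Between 0 d and 2 d, 2 of 5 fell (median -3.67), where 10.8% of all genes fell. The 0 d sums were 679.7 CPM in replicate 1 against 63.09 and 35.95 CPM in replicates 2 and 3. The part of these markers in the differences of the pair was not tested.

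The balance between the genes differed between groups. Divided by interval length, the thiazole synthase gene exceeded the pyrimidine synthase gene in every library. The ratio of their TPM values was 27.0 ± 5.64 (SD, n = 3) in light-grown epicarp, 39.6 ± 2.40 at 0 d, 23.6 ± 2.69 at 2 d and 24.4 ± 5.70 at 5 d. In mesocarp it was 17.8 ± 2.85 in light-grown fruit, 23.3 ± 12.6 at 0 d, 13.6 ± 5.31 at 2 d and 11.7 ± 1.45 at 5 d. The 0 d mesocarp libraries gave 34.9, 25.1 and 9.91, so replicate 3 alone lay below the light-grown range of 15 to 20.7. The epicarp ratio was higher at 0 d (37.3 to 42.1) than in any other epicarp library, where 32.7 was the highest. These ratios were not tested.

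**Figure D3:**
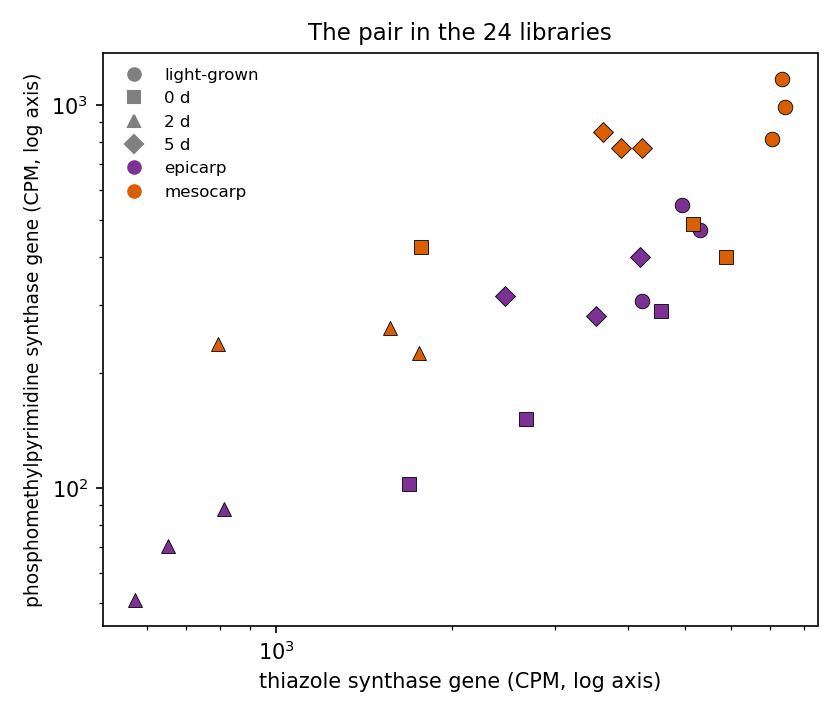
The pyrimidine synthase gene against the thiazole synthase gene in the 24 libraries, both in CPM on log axes. Colour gives the tissue and shape the condition. The 2 d libraries lie lowest within each tissue for the pyrimidine synthase gene, at 51.09 to 88 CPM in epicarp and 225.3 to 261.4 CPM in mesocarp.

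The genes varied together across libraries. Pearson's r of their log2 CPM was 0.836 over the 24 libraries, 0.945 over the 12 epicarp libraries that include those that chose the pair, and 0.782 over the 12 mesocarp libraries. Libraries of a group share a condition, so these values describe the groups more than independent points. Of 17185 other genes ranked, the pyrimidine synthase gene came in place 20 for likeness to the thiazole synthase gene, and the thiazole synthase gene in place 16 the other way. The epicarp libraries that chose both genes for the same rise are among the 24, so the choice fixed these places in part.

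Genes whose pattern was most like the thiazole synthase gene over the 24 libraries were a cysteine synthase, Solyc09g082060.3 (r = 0.897), which forms the amino acid cysteine, an undescribed expressed protein, Solyc01g086860.3 (0.884), Solyc03g114970.3, listed as Protein SPIRA.1 (0.878), a heat stress transcription factor A3, Solyc09g009100.4 (0.876), and a MADS-box gene, Solyc02g005110.3 (0.875). Most like the pyrimidine synthase gene were again Solyc03g114970.3 (0.9), a surE-like nucleotidase, Solyc06g054250.4 (0.893), Solyc01g010480.3, listed as TWIN LOV, a family with blue-light-sensing LOV domains (0.884), a starch branching enzyme, Solyc09g009190.5 (0.882), and a hydroxysteroid dehydrogenase, Solyc02g032330.3 (0.876). Between 2 d and 5 d in mesocarp, log2 differences of these genes were between 0.22 (Solyc09g009190.5) and 0.91 (Solyc01g010480.3), against 1.49 and 1.70 for the pair. They are a description, since these libraries also entered the ranking.

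Genes of the later thiamine steps were followed in the same libraries. The deposited counts held 7 further genes listed by description as thiamine-related, and all were tested. Between 2 d and 5 d in mesocarp none passed in either direction, where 2.51% of all genes did, so a count of 0 is near the background. Their median log2 difference was -0.16, against 0.02 over all genes. In epicarp the median was -0.35, with no test.

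The kinase that phosphorylates the pyrimidine precursor, Solyc01g103950.4, had means of 28.65 to 35.93 CPM over the 8 groups and gave log2 0.14 ± 0.20 between 2 d and 5 d in mesocarp (adjusted p 0.8, edgeR). Thiamine-phosphate synthase, Solyc02g062530.3, had means of 13.58 to 18.26 CPM and gave -0.13 ± 0.20 (adjusted p 0.818). Thiamine pyrophosphokinase, Solyc09g074970.3, which makes the active cofactor, had means of 2.838 to 4.616 CPM and gave -0.65 ± 0.39 (adjusted p 0.443). The transport gene of the THI74 description, Solyc09g061320.4, gave -0.01 ± 0.24 (adjusted p 0.995).

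**Figure D4:**
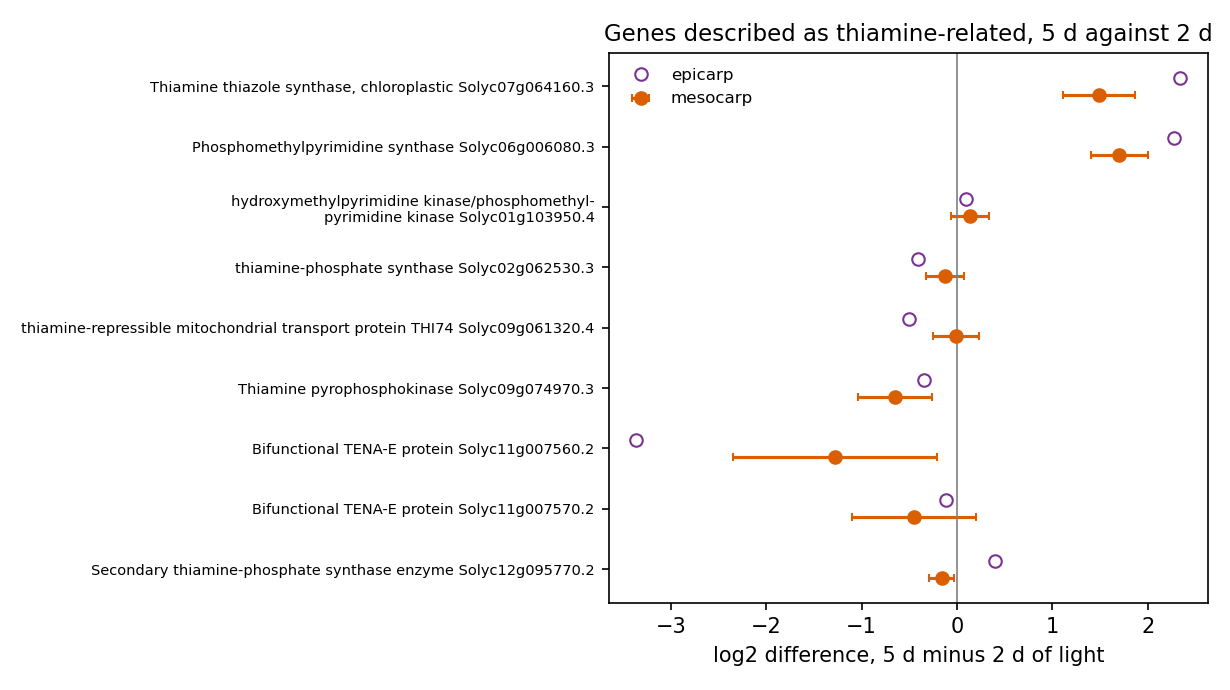
Log2 difference between 5 d and 2 d of light for the 9 genes described as thiamine-related. Filled points are mesocarp with the SE of the edgeR fit and open points are epicarp, shown without error because those libraries chose the pair. In mesocarp the pair stood at 1.49 and 1.70 and the other genes between -1.28 and 0.14.

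Other changes in the list fell on genes outside the pair and at other steps. The gene listed as a secondary thiamine-phosphate synthase, Solyc12g095770.2, rose between 0 d and 2 d in mesocarp from a mean of 68.99 to 105.8 CPM (log2 0.79 ± 0.13, adjusted p 0.000281, edgeR), while the pair was lower at 2 d than at 0 d. It was still higher at 5 d, at 96.43 CPM, than at 0 d (log2 0.62 ± 0.13, adjusted p 0.00279) and than in light-grown mesocarp (0.49 ± 0.13, adjusted p 0.0135). The last call was lost without 5 d replicate 2 or 3 or control replicate 3 (adjusted p 0.0536 to 0.0726), whereas both differences from 0 d held without any 1 library (adjusted p 9.91e-05 to 0.0228). One of the adjacent genes described as bifunctional TENA-E proteins, Solyc11g007560.2, had no read in any of the 6 light-grown libraries of both tissues. At the depths of the 24 libraries, 3 reads of a library are 0.129 to 0.163 CPM. This gene rose from 0.1013 ± 0.109 (SD, n = 3) to 1.429 ± 0.23 CPM between 0 d and 2 d in mesocarp (adjusted p 0.0328), a call lost without 0 d replicate 1 or 3 or any 1 of the 2 d libraries (adjusted p 0.0639 to 0.0875), and stood at 0.5947 ± 0.45 CPM at 5 d. At 5 d it also passed against light-grown mesocarp (adjusted p 0.0131, edgeR), where it had no read, so the size of that difference is not defined. That call was not repeated with libraries left out. The other TENA-E gene, Solyc11g007570.2, did not pass in any of the 9 tests, and reads may have been split between these neighbouring genes, so both are uncertain. Of the 7 genes, 0 were called at 0 d against control in epicarp or mesocarp, in the tissue comparisons at control and 0 d, or in the interaction. Of all genes, 19.1%, 4.30%, 26.8%, 18.3% and 2.56% were called there, in that order. In mesocarp 2 of the 7 were higher at 2 d than at 0 d, 1 at 5 d than at 0 d and 2 at 5 d than in control fruit, with 0 lower. Of all genes 13.3%, 11.1% and 12.6% were higher there. Without 0 d replicate 1 or 3 the first count was 1. With 7 genes, a difference from those shares was not tested.

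Enzymes that use thiamine pyrophosphate were listed by description, and 19 of 28 had enough reads to be tested. Between 2 d and 5 d in mesocarp 2 fell and none rose, where 1.44% of all genes fell: 2-oxoglutarate dehydrogenase, Solyc04g011350.3, from 95.69 to 40.97 CPM (log2 -1.25 ± 0.23, adjusted p 0.00648, edgeR), and pyruvate decarboxylase, Solyc10g076510.2, from 601 to 173.1 CPM (-1.82 ± 0.46, adjusted p 0.0391). The pyruvate decarboxylase call was lost without any 1 of the 6 libraries (adjusted p 0.0528 to 0.182). Between 0 d and 2 d, where the pair was lower, 4 of 19 rose and none fell, where 13.3% of all genes rose. Without 0 d replicate 3 the counts were 4 and 2. Among them transketolase, Solyc10g018300.3, a Calvin cycle and pentose phosphate enzyme, went from 127.8 to 678.5 CPM (2.58 ± 0.37, adjusted p 5.46e-05), and the 2-oxoglutarate dehydrogenase gene rose by 1.84 ± 0.23 (adjusted p 1.24e-05). At 0 d against light-grown epicarp 5 of 19 were lower and none higher, where 9.08% of all genes were lower.

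Vitamin B6 synthesis was listed for comparison with 5 genes, all tested. Between 0 d and 2 d in mesocarp 2 of 5 rose, where 13.3% of all genes rose. The count was 1 without 0 d replicate 1 or replicate 2 and 3 without replicate 3. Among the 2 was the pyridoxal phosphate synthase subunit gene Solyc06g081980.1, from 88.65 to 391.1 CPM (log2 2.31 ± 0.24, adjusted p 9.33e-07, edgeR). Between 2 d and 5 d that gene fell to 151.3 CPM (-1.40 ± 0.23, adjusted p 0.00271) while the thiamine pair rose. Photosystem genes, of which 64 of 181 were tested, were higher in 35 cases and lower in none between 0 d and 2 d in mesocarp (median log2 1.20, against -0.05 over all genes). Of all genes 13.3% were higher and 10.8% lower there. With 1 of the 0 d libraries left out, 27 to 36 of 65 were higher. Between 2 d and 5 d none passed (median 0.18), where 2.51% of all genes did. In epicarp the photosystem median between 2 d and 5 d was 0.17, with no test.

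A clock gene stood high at 2 d, where the pair stood low, and lower at 5 d. LATE ELONGATED HYPOCOTYL (LHY), Solyc10g005080.3, a morning-phased repressor of the circadian oscillator that was named after its values were seen, stood at 171.3 to 210.7 CPM in the 2 d mesocarp libraries and at 39.42 to 69.92 CPM at 5 d (log2 -1.82 ± 0.62, adjusted p 0.138, edgeR). In epicarp it stood at 105.9 to 136.5 CPM at 2 d and at 35.47 to 42.5 CPM at 5 d, with no test. In both tissues the 2 d and 5 d libraries did not overlap, and neither did they for the pair. The share of all genes like that was not counted. In the thiamine list, Solyc09g074970.3 and Solyc11g007560.2 also did not overlap in either tissue, and neither passed in mesocarp (adjusted p 0.443 and 0.61, edgeR). In light-grown fruit LHY lay at 21.32 to 43.83 CPM in epicarp and 20.74 to 24.44 CPM in mesocarp.

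At 0 d, LHY separated replicate 1 from the others, with 214.3 CPM against 31.34 and 36.18 CPM in epicarp and 166.5 CPM against 27.64 and 34.59 CPM in mesocarp. There, replicate 1 was the highest 0 d library of the thiazole synthase gene in mesocarp (5886 CPM) and lay between the others in epicarp (2671 CPM). For the pyrimidine synthase gene it was the lowest in mesocarp and lay between the others in epicarp. Over the 24 libraries LHY correlated with the thiazole synthase gene at r = -0.65 and with the pyrimidine synthase gene at -0.56. In the other direction, the pseudo-response regulator genes Solyc04g049670.4 and Solyc04g049680.2, an EARLY FLOWERING 4 gene, Solyc06g051660.1, and a GIGANTEA gene, Solyc04g071990.3, correlated with the thiazole synthase gene at 0.65, 0.6, 0.64 and 0.52. With the pyrimidine synthase gene they gave 0.59, 0.55, 0.34 and 0.55. They were named for the highest values with the thiazole synthase gene among the clock genes ranked. Beside LHY, the others ranged from -0.38 to 0.33 with that gene, with another GIGANTEA gene at -0.11. With the pyrimidine synthase gene those others ranged from -0.48 to 0.66. The epicarp libraries that chose the pair are among the 24, so the choice shaped these values in part. Of 14 tested clock genes, 0 passed between 2 d and 5 d in mesocarp, where 2.51% of all genes did. Between 0 d and 2 d, 2 were higher and 1 lower, where 13.3% and 10.8% of all genes were, among them that EARLY FLOWERING 4 gene (log2 -1.65 ± 0.31, adjusted p 0.000769). A difference in the hour of collection between 2 d and 5 d fruit was not tested.

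**Figure D5:**
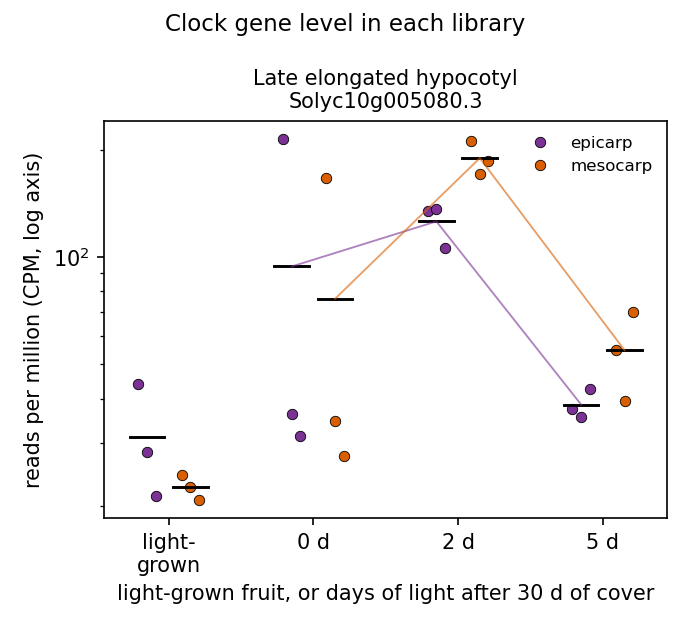
LATE ELONGATED HYPOCOTYL in every library, in CPM on a log axis, against condition. Points are libraries, bars are means of 3 and lines join the means at 0 d, 2 d and 5 d. The 2 d libraries stand above the 5 d libraries in both tissues, and 1 library of each tissue stands high at 0 d.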

How the data were processed

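Tomato fruit RNA was sequenced as 150-base read pairs, per the labels' protocols. Trimmomatic 0.39, featureCounts and DESeq2 are named in the submitters' processing notes. Not given in the sources used here are the aligner and strand setting. The authors deposited whole read counts per gene, not normalized, and TPM values, scaled per interval length and library. Among the deposited counts the name of mesocarp 2 d replicate 3 heads 2 columns and no name is that of mesocarp 5 d replicate 3, so neither column entered any step. For both libraries, reads were instead recovered from TPM times interval length (100.0% of genes whole within 0.01); the same step returned the deposited counts of all 34688 genes in the other 22 libraries. All values for mesocarp 2 d and 5 d rest in part on these recovered reads.

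Counts were fitted in R 4.3.3 with edgeR 4.0.16 (TMM, filterByExpr, robust quasi-likelihood), 1 fit over 24 libraries with 8 group means. The SE is the log2 difference over the square root of F. Folds use the fit, levels are reads per 1e6 assigned reads (CPM). Benjamini-Hochberg adjustment covered the 19620 genes tested, at 0.05, in 9 contrasts. Likeness is Pearson's r of log2 CPM (prior count 2) over genes of mean CPM 1 or more. Alternatives used DESeq2 1.42.0, limma 3.58.1 on log2(TPM + 1) and log2(TPM + 0.1), DESeq2 size factors, no filter, the spread of the compared groups only, no epicarp 2 d and 5 d libraries, a replicate block and each library left out. Tables were read with Python 3.11.15 and pandas 2.3.3. The scripts were tested on simulated data.

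The members and gene lists were chosen with earlier results of these data known. Named genes are the pair, the thiamine list, at most 3 called genes of each other list and the 5 genes most like each member. Exceptions are said. Among them, LHY was named after its values were seen and other clock genes for their correlation with the thiazole synthase gene. Replicate numbers were checked as pairs: between tissues all 3 same-number pairs correlated above 0.1 at 0 d (0.385 to 0.644), at 2 d (0.124 to 0.171) and at 5 d (0.194 to 0.305), while in control fruit 1 of 3 did. Between conditions of 1 tissue 4 of 36 did. Of the contrasts tested, the tissue contrast at 0 d is thus the paired one, and the interaction holds the same 0 d libraries. Only the replicate block took this pairing into account. Tissue contrasts at 2 d and 5 d were not tested. Left-out libraries for genes of the lists were added after seeing the data.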

Additional observations from a re-analysis of the deposited data

How the results depend on the processing

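Of 264 recomputed values of the pair, 222 kept direction and side of the threshold; the rest are listed here as log2 values, and where no construction shows it the cause was not tested. With the spread of the compared groups only, the pyrimidine synthase gene no longer passed at 0 d against control in epicarp (-1.23, adjusted p 0.151) and mesocarp (-1.08, 0.205). It also no longer passed between tissues at 0 d (-1.25, 0.241). The thiazole synthase gene no longer passed between 2 d and 0 d in mesocarp (-1.47, 0.103). The same setting passed the pyrimidine synthase gene between 2 d and 0 d in mesocarp (-0.71, 0.0394) and the thiazole synthase gene at 5 d against control (-0.68, 0.0204) and between tissues in control fruit (-0.56, 0.0103). DESeq2 (-0.73) and limma with pseudocounts of 1 and 0.1 (-0.90 each) also passed the pyrimidine synthase gene between 2 d and 0 d. Without epicarp 2 d and 5 d libraries, calls were lost for the thiazole synthase gene between 5 d and 2 d in mesocarp (1.49, 0.103) and for the pyrimidine synthase gene at 0 d against control in mesocarp (-1.09, 0.0838). The replicate block, on numbers that do not pair conditions, gave 1.5 (0.0671) and -1.09 (0.0536) there. In the paired tissue contrast at 0 d it changed no call of the pair. The thiazole synthase gene between 5 d and 0 d in mesocarp was 0.00, just below zero, under DESeq2 and under its size factors.

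Leaving out 1 library, the thiazole synthase gene ranged over -1.17 to -0.37 (epicarp 0 d against control), -0.97 to -0.33 (mesocarp 0 d against control), -1.83 to -1.18 (mesocarp 2 d against 0 d), 1.25 to 1.73 (5 d against 2 d), -0.34 to 0.30 (5 d against 0 d, turned without 0 d replicate 3, and at -0.06 without 5 d replicate 2), -0.76 to -0.65 (5 d against control), and -0.46 to 0.32 (interaction, also turned at -0.34, -0.05 and 0.00). For the pyrimidine synthase gene the ranges were -1.22 to -0.93 (mesocarp 0 d against control), 0.91 to 1.06 (5 d against 0 d), -0.23 to 0.06 (5 d against control), -1.24 to -0.88 (tissues, control) and -0.72 to 0.13 (interaction). Between 0 d and 2 d in mesocarp, the calls of transketolase (2.31 to 2.98), 2-oxoglutarate dehydrogenase (1.61 to 2.14), the pyridoxal phosphate synthase gene (2.2 to 2.47) and EARLY FLOWERING 4 (-1.89 to -1.41) held without any 1 library.

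Counts of called genes over the table moved more: for mesocarp 5 d against 2 d from 492 to 1105 in DESeq2, 196 without epicarp 2 d and 5 d, and 162 to 386 with 1 library left out; for mesocarp 0 d against control from 844 to 6 with the spread of the groups compared, 327 without epicarp 2 d and 5 d, 561 with the block, 1485 in limma, 1764 in DESeq2 and 408 to 1938 with 1 library left out. The groups-only spread gave 898 in place of 3755 (epicarp 0 d against control), 2146 in place of 4719 (mesocarp 2 d against 0 d), 802 in place of 3773 (5 d against 0 d) and 37 in place of 3600 (tissues, 0 d). With 1 library left out, counts fell to 2210 (epicarp 0 d against control, without 0 d replicate 2; 2266 and 2372 without control replicates 1 and 2), 2347 (5 d against 0 d, without 5 d replicate 2) and 2558 (5 d against control, without 5 d replicate 2), and that of the interaction ranged over 289 to 1348. For the interaction the count was 503, from 58 (groups-only spread) to 1451 (block), and 5 d against control from 3987 to 6073 in limma. On the TPM scale the median difference of all genes was down to -0.24 (5 d against control), and the share of higher among called genes moved from 55.8% to 20% (mesocarp 0 d against control), 55.2% to 36.4% (2 d against 0 d), 57.9% to 40.8% (5 d against 0 d), 62.1% to 27.1% (5 d against control), 49.3% to 36.1% (tissues, control) and 29% to 57.5% (interaction).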
